A study of Homo sapiens with 6 samples.

Results

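This report describes 10 Krüppel-like factor (KLF) genes, KLF3, KLF5, KLF6, KLF7, KLF8, KLF9, KLF10, KLF11, KLF13 and KLF16, in human embryonic stem cells held in or converted between the primed and naive states of pluripotency. They were taken by name from the deposited count table, which holds 18 KLF genes and 48183 gene names in all. The libraries compared were 4 of naive cells and 2 of primed cells, all from one embryonic stem cell line (H1 in the sample labels, H9 in the text of the study) that carries EOS-GFP, a reporter driven by the distal enhancer of POU5F1. AICAR 1 and AICAR 2 were libraries of EOS cells converted with AICAR, an activator of the energy sensor AMPK. VPA was a library of EOS cells converted with valproic acid, a histone deacetylase inhibitor. CA-p38 was a library of CA-p38 EOS cells, which carry a doxycycline-inducible (Tet-ON), constitutively active form of the kinase p38 and were converted with doxycycline. Per the study, AICAR and doxycycline were withdrawn after conversion, and the naive samples were taken many passages later. Primed EOS and primed CA-p38 were the untreated parental lines. Both lines were made by piggyBac transfection and selected without a stated cloning step. Per the study's methods, naive cells were maintained on mouse feeder cells in PXGL medium (PD0325901, a MEK inhibitor, with XAV939, Go6983 and LIF) or in FXGL. FXGL holds an inhibitor of an FGF receptor in place of PD0325901. The study's results describe expansion in PXGL for AICAR and CA-p38 cells. Its text also places CA-p38 naive cells in feeder-free PXGL, so feeder use for that library is not settled. Conversion with valproic acid used PD0325901 and LIF without XAV939 or Go6983. Naive cells were sorted as CD75+/SUSD2+ cells before RNA extraction, whereas primed cells were grown without feeders in StemFit AK02N and dissociated without this sort. State, medium, feeder cells and sort therefore cannot be told apart in the comparisons that follow.

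KLF proteins are transcription factors that bind GC-rich boxes and CACCC elements through zinc fingers at their C-terminal end. Their N-terminal parts differ and decide which partners are recruited. KLF5, KLF6 and KLF7 act mostly as activators, KLF3, KLF8 and KLF12 bind the corepressor CtBP, and KLF9, KLF10, KLF11, KLF13 and KLF16 bind the corepressor SIN3A. In pluripotent cells the family is best known through KLF2, KLF4 and KLF17. KLF5 shares targets with KLF2 and KLF4 in mouse embryonic stem cells and is needed for the early blastocyst lineages of the mouse.

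Total counts ran from 46823699 to 54277064 per library. Of 6 naive marker genes, 6 were higher in naive libraries, with summed levels of 4706 to 5554 CPM (counts relative to library size, scaled by TMM factors) against 2.92 to 6.32 CPM in primed libraries, although SUSD2 among them was also used for the sort. All 5 primed markers were lower. Of 3 pluripotency genes, POU5F1 did not pass the test (log2 fold change -0.12), NANOG was higher (1.33) and SOX2 was lower (-0.87). Of the trophectoderm markers 3 of 4 tested were higher, CDX2 (log2 fold change 7.17, on 1 and 0 primed counts), HAND1 (3.996) and KRT7 (1.08), and GATA3 did not pass. TP63 was not tested and stayed at or below 0.282 CPM. Together these markers summed to 11.55 to 13.8 CPM in naive and 3.84 to 4.95 CPM in primed libraries. Of 6 fibroblast markers 3 were lower, and they summed to 30.8 to 72.8 CPM in naive and 175 to 192 CPM in primed libraries. Hypoblast and endoderm markers summed to 12.7 to 18.6 against 8.76 to 32.5 CPM, and neural markers to 1.67 to 3.185 against 7.53 to 7.99 CPM. Of the hypoblast and endoderm markers, GATA4 was higher (4.51), SOX17 (-3.505), PDGFRA (-0.94) and FOXA2 (-4.14) were lower, and GATA6 did not pass. The 2 primed libraries differed in these markers, with FOXA2 at 21.4 CPM in primed CA-p38 and 5.35 CPM in primed EOS. Their part in the results for the KLF genes was not tested.

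Relative to library size, naive libraries held more RNA of most of these KLF genes than primed libraries. CPM are shares of each library, so RNA per cell was not measured. Of the 10 genes, 7 were higher in naive libraries (KLF3, KLF5, KLF6, KLF8, KLF9, KLF11 and KLF16), KLF10 was lower, and KLF7 and KLF13 did not pass the test (quasi-likelihood test of edgeR, p adjusted by Benjamini-Hochberg over 26497 genes, threshold 0.05). Over all genes tested, 26% were higher and 27% were lower by the same test. For the same 7 genes each naive library lay above both primed libraries, which was so for 32.9% of all genes, and for KLF10 each lay below, which was so for 32.1%. The median log2 fold change was 1.23 over the 10 genes and 0.107 over all genes. These are bulk libraries, so fewer cells with a transcript and less of it per cell cannot be told apart. Every one of the 10 genes passed the filter on low counts, the lowest single count being 21.

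**Figure D1:**
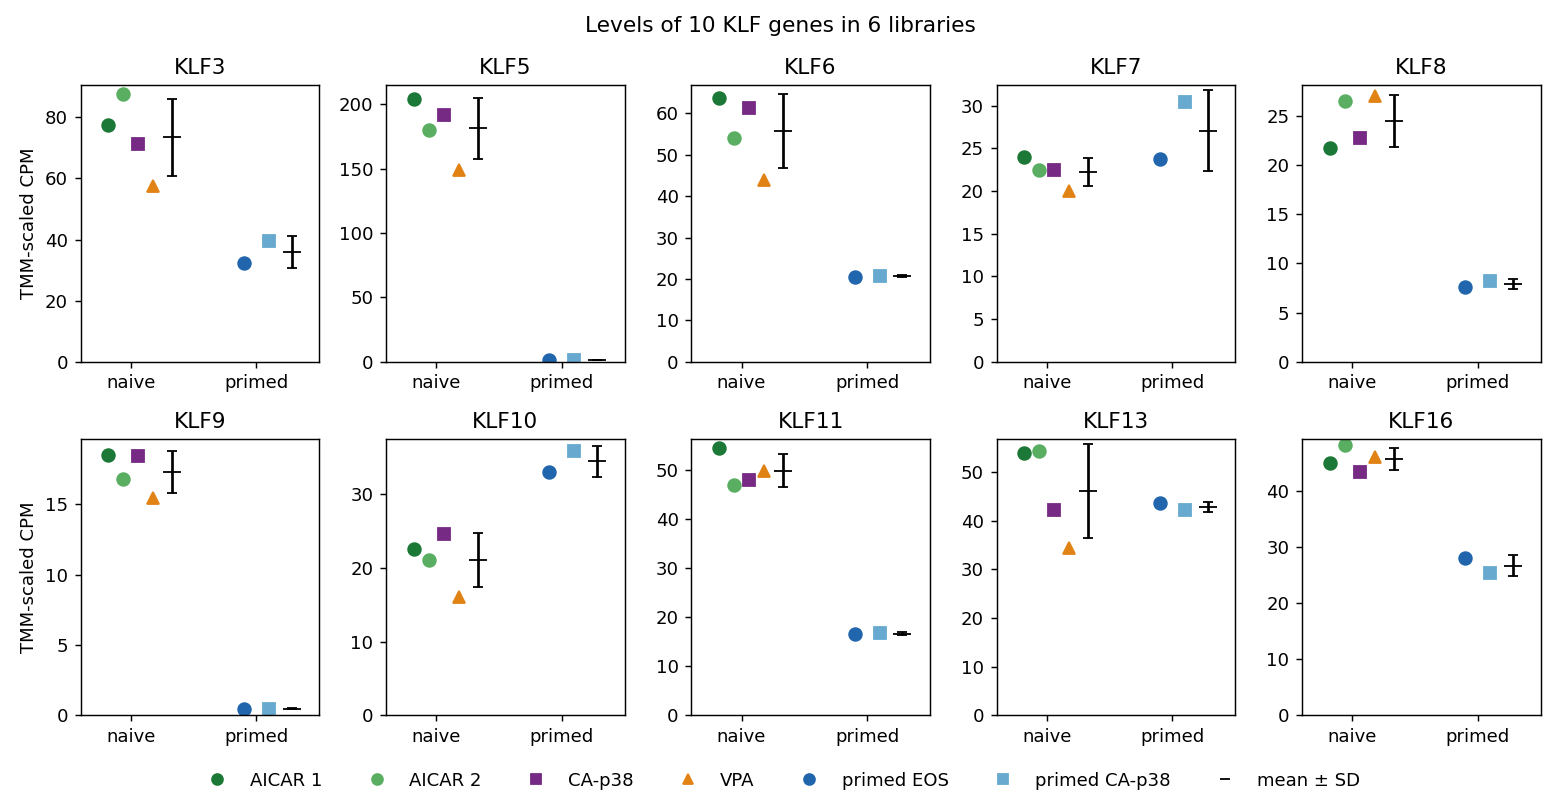
Level of each of the 10 KLF genes (TMM-scaled CPM, vertical axis starting at 0 with its own range in each panel) in the 4 naive and 2 primed libraries, 1 point per library, with the mean ± SD of each group beside them. KLF5 and KLF9 lie near 0 in both primed libraries, KLF10 is the gene whose primed points lie above every naive point, and the groups overlap for KLF7 and KLF13.

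KLF5, a widely acting activator of proliferation genes, changed most. Its level was 203.9 CPM in AICAR 1, 180.3 CPM in AICAR 2, 191.8 CPM in CA-p38 and 149.1 CPM in VPA, against 1.70 CPM in the primed EOS library and 1.45 CPM in the primed CA-p38 library. Every naive library was far above both primed libraries. The means were 181 ± 23.5 CPM (SD, n = 4) and 1.57 ± 0.173 CPM (SD, n = 2), a 115-fold difference, with a log2 fold change of 6.85 ± 0.195 (SE, edgeR adjusted p = 3.79e-11). The primed values rested on 84 and 71 counts, the naive ones on 7807 to 11087. Of all genes tested, 98.8% had a lower log2 fold change. The study displayed a set of genes associated with naive and primed pluripotency for these libraries, and its text does not say whether KLF5 is among them.

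KLF9, a small repressor known as a target of glucocorticoid and thyroid hormone receptors, was the other gene at a very low level in primed cells. It stood at 18.5 CPM in AICAR 1, 16.8 CPM in AICAR 2, 18.4 CPM in CA-p38 and 15.4 CPM in VPA, and at 0.485 CPM in the primed EOS library and 0.429 CPM in the primed CA-p38 library. The naive libraries lay within a narrow band that did not come near the primed ones. The means of 17.3 ± 1.47 CPM (SD, n = 4) and 0.457 ± 0.0392 CPM (SD, n = 2) differed 37.8-fold, with a log2 fold change of 5.23 ± 0.246 (SE, edgeR adjusted p = 2.29e-09). Only 24 and 21 counts stood behind the primed values, so this fold is known less closely than that of KLF5. Of all genes, 97.6% had a lower log2 fold change.

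The sequences just upstream of these genes are shown because KLF proteins bind GC boxes and CACCC elements and several KLF genes are known to be regulated by other members of the family. Shown are KLF5 and KLF9, the 2 genes with the largest changes, KLF16, which has the most GC boxes, and KLF7, which did not pass the test. For each, the 250 bases before the start site of the principal transcript are given 5′ to 3′ on the gene's strand (RefSeq, GRCh38.p14). KLF5 had 2 windows and KLF7 had 4, of which 1 each is shown. These windows of KLF5 and KLF7 lie inside the gene spans, so start sites further upstream are not covered. Capitals mark GGGCGG or CACCC on either strand, so that CCGCCC and GGGTG are also in capitals, and adjoining or overlapping matches form 1 run. The window of KLF5 is chr13:73058755-73059004 on the plus strand, that of KLF9 is chr9:70414658-70414907 on the minus strand, that of KLF16 is chr19:1863580-1863829 on the minus strand and that of KLF7 is chr2:207165949-207166198 on the minus strand.
KLF5: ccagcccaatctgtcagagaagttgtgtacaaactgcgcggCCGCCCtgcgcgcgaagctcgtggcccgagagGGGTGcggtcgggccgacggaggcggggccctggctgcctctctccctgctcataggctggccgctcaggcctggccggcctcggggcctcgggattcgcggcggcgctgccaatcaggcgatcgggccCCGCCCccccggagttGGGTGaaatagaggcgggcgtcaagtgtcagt
KLF9: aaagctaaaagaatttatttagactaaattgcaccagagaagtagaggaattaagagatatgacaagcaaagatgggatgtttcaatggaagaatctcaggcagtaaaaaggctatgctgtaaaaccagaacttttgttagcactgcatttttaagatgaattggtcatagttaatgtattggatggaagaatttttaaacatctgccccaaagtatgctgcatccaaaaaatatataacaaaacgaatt
KLF16: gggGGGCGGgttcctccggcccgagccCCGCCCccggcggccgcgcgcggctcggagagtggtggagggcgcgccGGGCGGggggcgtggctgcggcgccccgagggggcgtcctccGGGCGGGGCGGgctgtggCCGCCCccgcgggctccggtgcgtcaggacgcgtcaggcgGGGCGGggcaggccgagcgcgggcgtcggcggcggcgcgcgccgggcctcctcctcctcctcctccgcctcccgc
KLF7: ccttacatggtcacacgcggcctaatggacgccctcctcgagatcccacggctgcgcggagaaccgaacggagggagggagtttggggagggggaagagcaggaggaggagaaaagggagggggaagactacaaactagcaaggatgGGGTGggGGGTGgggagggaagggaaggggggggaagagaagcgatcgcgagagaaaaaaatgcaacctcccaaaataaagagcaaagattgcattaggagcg
The window of KLF5 held 2 matches to GGGCGG and 2 to CACCC at 70.8% GC, whereas that of KLF9 held neither motif at 32.4% GC. KLF16 had 7 matches to GGGCGG and none to CACCC at 86.4% GC, and KLF7 had 2 to CACCC and none to GGGCGG at 58.0% GC. Among the others, KLF13 had 3 and 1 matches, KLF8 had 1 and 3, and KLF6 and KLF11 had 2 matches to GGGCGG each and none to CACCC. Over 35116 promoter windows of the same length, 42.6% held GGGCGG, 54.7% held CACCC and the median GC content was 58.0%. KLF5 and KLF9, the genes with the 2 largest changes, thus stood far apart in base composition and in these motifs in the windows shown. TTCNNNGAA, a sequence bound by STAT factors, was found in none of the windows described for these genes and in 6.57% of all windows. KLF8 had 4 windows and KLF11 had 2, of which 1 each was described. Upstream windows were matched for KLF5, KLF6, KLF7, KLF8, KLF9, KLF11, KLF13 and KLF16, but that of KLF11 precedes a start site 279 bases downstream of the start of its principal transcript and so lies within that transcript.

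Of the other activators, KLF6 was higher and KLF7 was not separated. KLF6, an early response gene also known as a tumour suppressor, was at 63.8 CPM in AICAR 1, 54.05 CPM in AICAR 2, 61.2 CPM in CA-p38 and 43.9 CPM in VPA, against 20.4 CPM in the primed EOS library and 20.8 CPM in the primed CA-p38 library. All naive libraries exceeded both primed libraries, VPA by the smallest margin. The means of 55.7 ± 8.92 CPM (SD, n = 4) and 20.6 ± 0.249 CPM (SD, n = 2) gave a log2 fold change of 1.44 ± 0.161 (SE, edgeR adjusted p = 7.37e-06). KLF7, best known for its role in neurons and fat cells, was at 23.97 CPM in AICAR 1, 22.5 CPM in AICAR 2 and in CA-p38, and 20.0 CPM in VPA, and at 23.7 CPM in the primed EOS library and 30.4 CPM in the primed CA-p38 library. AICAR 1 lay above primed EOS, so the groups overlapped. Its log2 fold change of -0.29 ± 0.148 (SE, approximate 95% interval -0.575 to 0.003, edgeR adjusted p = 0.122) did not pass the test. The value depended on the primed library, since primed CA-p38 had 1.28 times the level of primed EOS. It was -0.47 (adjusted p = 0.0539 by edgeR) without primed EOS and -0.09 (adjusted p = 0.750 by edgeR) without primed CA-p38.

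Both CtBP-binding members rose. KLF3, a broadly expressed repressor of blood and fat cell genes, was at 77.35 CPM in AICAR 1, 87.8 CPM in AICAR 2, 71.3 CPM in CA-p38 and 57.6 CPM in VPA, against 32.3 CPM in the primed EOS library and 39.6 CPM in the primed CA-p38 library. The groups did not overlap, and the AICAR libraries were the highest. Means of 73.5 ± 12.6 CPM (SD, n = 4) and 36.0 ± 5.16 CPM (SD, n = 2) gave a log2 fold change of 1.03 ± 0.165 (SE, edgeR adjusted p = 0.000165). KLF8, an X-linked repressor linked to cell migration, was at 21.7 CPM in AICAR 1, 26.5 CPM in AICAR 2, 22.7 CPM in CA-p38 and 27.02 CPM in VPA, and at 7.55 CPM in the primed EOS library and 8.22 CPM in the primed CA-p38 library. Here VPA was the highest naive library rather than the lowest. With means of 24.5 ± 2.65 CPM (SD, n = 4) and 7.88 ± 0.470 CPM (SD, n = 2), the log2 fold change was 1.63 ± 0.167 (SE, edgeR adjusted p = 3.14e-06).

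The SIN3A-binding members did not move together, with KLF9 and KLF11 strongly higher, KLF16 moderately higher, KLF13 not separated and KLF10 lower. KLF10 and KLF11 are close relatives, both described as early genes of TGF-beta signalling, and they moved in opposite directions. KLF11 was at 54.5 CPM in AICAR 1, 47.0 CPM in AICAR 2, 48.0 CPM in CA-p38 and 49.8 CPM in VPA, against 16.5 CPM in the primed EOS library and 16.9 CPM in the primed CA-p38 library. The naive libraries kept close to each other and far from the primed ones. Its means of 49.8 ± 3.32 CPM (SD, n = 4) and 16.7 ± 0.272 CPM (SD, n = 2) gave a log2 fold change of 1.58 ± 0.130 (SE, edgeR adjusted p = 4.19e-07). KLF10 was at 22.5 CPM in AICAR 1, 21.0 CPM in AICAR 2, 24.6 CPM in CA-p38 and 16.1 CPM in VPA, and at 32.99 CPM in the primed EOS library and 35.9 CPM in the primed CA-p38 library. Both primed libraries lay above every naive library, and VPA was the lowest of all. With means of 21.1 ± 3.62 CPM (SD, n = 4) and 34.5 ± 2.08 CPM (SD, n = 2), the log2 fold change was -0.71 ± 0.163 (SE, edgeR adjusted p = 0.00263), which is 1.64-fold lower in naive cells.

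KLF16, first described as a regulator of dopamine receptor genes, showed the smallest rise among the genes that passed. It was at 45.1 CPM in AICAR 1, 48.25 CPM in AICAR 2, 43.5 CPM in CA-p38 and 46.1 CPM in VPA, against 28.01 CPM in the primed EOS library and 25.4 CPM in the primed CA-p38 library. The 4 naive libraries were nearly level and clear of the primed ones. Its means were 45.7 ± 2.01 CPM (SD, n = 4) and 26.7 ± 1.84 CPM (SD, n = 2), with a log2 fold change of 0.78 ± 0.122 (SE, edgeR adjusted p = 0.000147). KLF13, an activator of the chemokine gene CCL5 in T cells, was at 53.8 CPM in AICAR 1, 54.2 CPM in AICAR 2, 42.1 CPM in CA-p38 and 34.35 CPM in VPA, and at 43.6 CPM in the primed EOS library and 42.1 CPM in the primed CA-p38 library. The AICAR libraries lay above the primed libraries and VPA below them. The means were 46.1 ± 9.66 CPM (SD, n = 4) and 42.8 ± 1.07 CPM (SD, n = 2). The log2 fold change of 0.11 ± 0.173 (SE, approximate 95% interval -0.232 to 0.445, edgeR adjusted p = 0.630) did not pass the test. KLF13 was counted under 2 identifiers, ENSG00000169926 on chromosome 15 with 1006 to 1742 counts and ENSG00000275746 with 793 to 1183 counts, which were summed and between which reads may have been split.

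**Figure D2:**
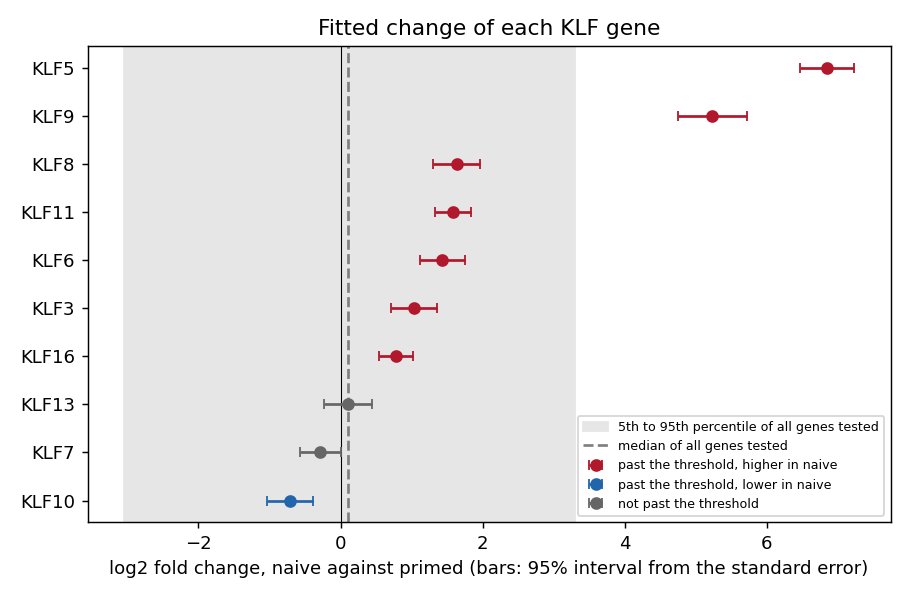
Fitted log2 fold change of naive against primed libraries for each KLF gene (horizontal axis), with approximate 95% intervals from the standard error as bars. The median of all 26497 genes tested is a dashed line and their 5th to 95th percentile a grey band. KLF5 at 6.85 and KLF9 at 5.23 lie beyond the band, and the bars of KLF7 and KLF13 reach 0.

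To compare genes with each other, CPM was divided by the length of the merged exons of each gene. On this scale KLF5 was the most abundant of the 10 in naive cells, with 49.3 ± 6.4 CPM per kb (SD, n = 4), against 0.428 CPM per kb in primed cells, where only KLF9 was lower. KLF16 followed in naive cells with 15.4 ± 0.676 CPM per kb, then KLF3 with 10.85 ± 1.86, KLF11 with 10.8 ± 0.723 and KLF6 with 9.08 ± 1.45 CPM per kb. The ranges of KLF3, KLF11 and KLF6 over the naive libraries overlapped, so their order is not settled. KLF10 with 5.51 ± 0.947 and KLF13 with 4.89 ± 1.02 CPM per kb also overlapped. The lowest levels in naive cells were those of KLF9 with 3.32 ± 0.282, KLF7 with 2.31 ± 0.172 and KLF8 with 1.92 ± 0.208 CPM per kb, of which KLF7 and KLF8 overlapped. In primed cells the order was different, with KLF10 at 9.02 and KLF16 at 9.004 CPM per kb leading and overlapping. They were followed by KLF3 at 5.31, KLF13 at 4.54, KLF11 at 3.63, KLF6 at 3.36, KLF7 at 2.82 and KLF8 at 0.619 CPM per kb, with KLF5 and KLF9 (0.0879 CPM per kb) last. KLF9, 1 of the 2 genes with the largest fold, thus remained among the less abundant members in naive cells. Taking the longest transcript as the length exchanged the places of KLF10 and KLF13 and of KLF7 and KLF8 in naive cells and of KLF11 and KLF6 in primed cells.

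**Figure D3:**
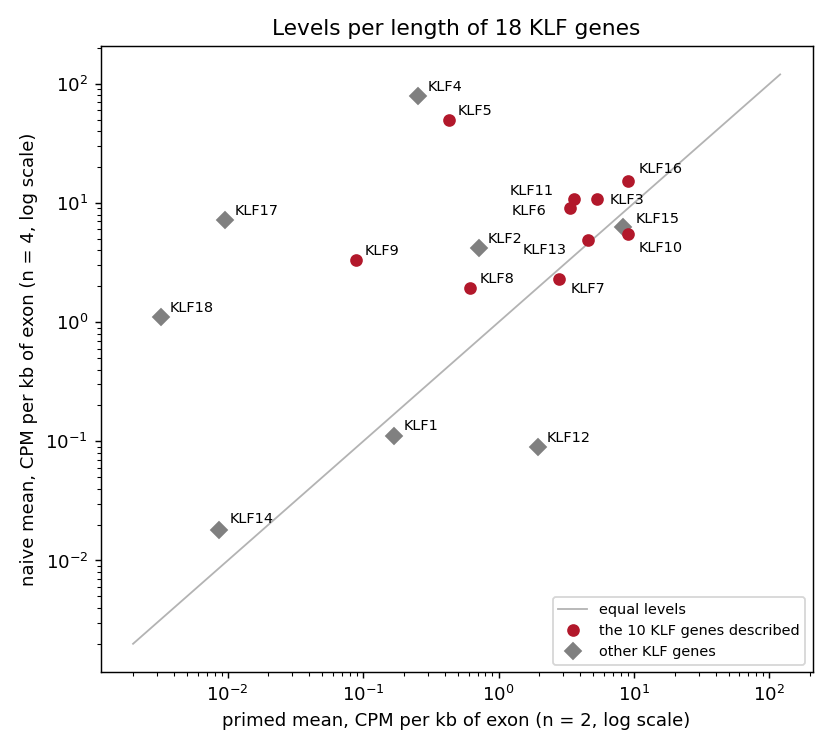
Mean level per length (CPM per kb of merged exons) of all 18 KLF genes in naive libraries (vertical log axis, n = 4) against primed libraries (horizontal log axis, n = 2), with the 10 genes described here as red circles, the other KLF genes as grey diamonds and a line of equal levels. KLF5 lies beside KLF4 at the top left, KLF9 lies far above the line at a lower level, and KLF10 lies below the line beside KLF15.

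Summed per length, the 10 genes gave 97.6 to 124 CPM per kb in naive libraries and 38 to 39.6 CPM per kb in primed libraries. Without KLF5 the sums were 57.1 to 68.2 and 37.5 to 39.2 CPM per kb, and the groups still did not overlap. KLF5 alone made up 41.5% to 44.8% of the summed level of the 10 in naive libraries and 0.995% to 1.21% in primed libraries. The 10 genes made up 53.3% to 54.3% of the summed level of all 18 KLF genes in naive libraries and 77.0% to 77.7% in primed libraries, while KLF4 took 36.2% to 38.3% in naive and 0.460% to 0.559% in primed libraries. By partner class, the activators KLF5, KLF6 and KLF7 summed to 60.7 ± 8.01 CPM per kb in naive and 6.60 ± 0.488 CPM per kb in primed libraries. The CtBP-binding KLF3 and KLF8 summed to 12.8 ± 1.83 and 5.93 ± 0.800 CPM per kb. The SIN3A-binding members summed to 40.0 ± 2.15 and 26.3 ± 0.138 CPM per kb (SD, n = 4 and n = 2 in each case). In primed libraries the SIN3A-binding class was thus the largest and in naive libraries the activators were, and KLF5 supplied most of that sum.

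Ratios between related members were set out after their values had been seen and carry no test. KLF11 per length was 1.62 to 2.57 times KLF10 in the naive libraries and 0.390 to 0.415 times KLF10 in the primed libraries. KLF6 was 3.44 to 4.27 times KLF7 in naive and 1.07 to 1.35 times KLF7 in primed libraries. KLF5 stood at 0.577 to 0.651 of the level of KLF4 in naive libraries and at 1.67 to 1.68 times KLF4 in primed libraries, where both were low. Between the states, KLF10 and KLF11 thus changed places, while KLF5 and KLF4 were both low in primed and both high in naive libraries. Among the CtBP-binding genes, KLF3 was 87.5 to 184 times KLF12 in naive and 2.45 to 3.02 times KLF12 in primed libraries.

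Each naive library was also set against its own parental primed library, with 1 library on either side and hence no test. The rule of size below was applied after adding 0.5 CPM to both levels, while the ratios given for single genes are plain ratios of CPM. Intervals cover counting error only, and AICAR 1, AICAR 2 and VPA share primed EOS as their reference. Past a fold of 2, AICAR 1 had 6 of the 10 genes higher and 0 lower, where 13.7% and 15.1% of all genes were so. AICAR 2 also had 6 higher and 0 lower (15.7% and 15.5% of all genes). CA-p38 over primed CA-p38 had 5 higher and 0 lower (13.9% and 15.2% of all genes), and VPA had 5 higher and 1 lower, KLF10 (15% and 15.2% of all genes). KLF10 in VPA lay at this limit, at 0.4955 with 0.5 CPM added, and was within it at 0.514 with library totals as scaling and 0.5171 with 2 CPM added. The 5 that were past this fold in every naive library were KLF5, KLF6, KLF8, KLF9 and KLF11, and KLF3 was the sixth in the AICAR libraries.

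**Figure D4:**
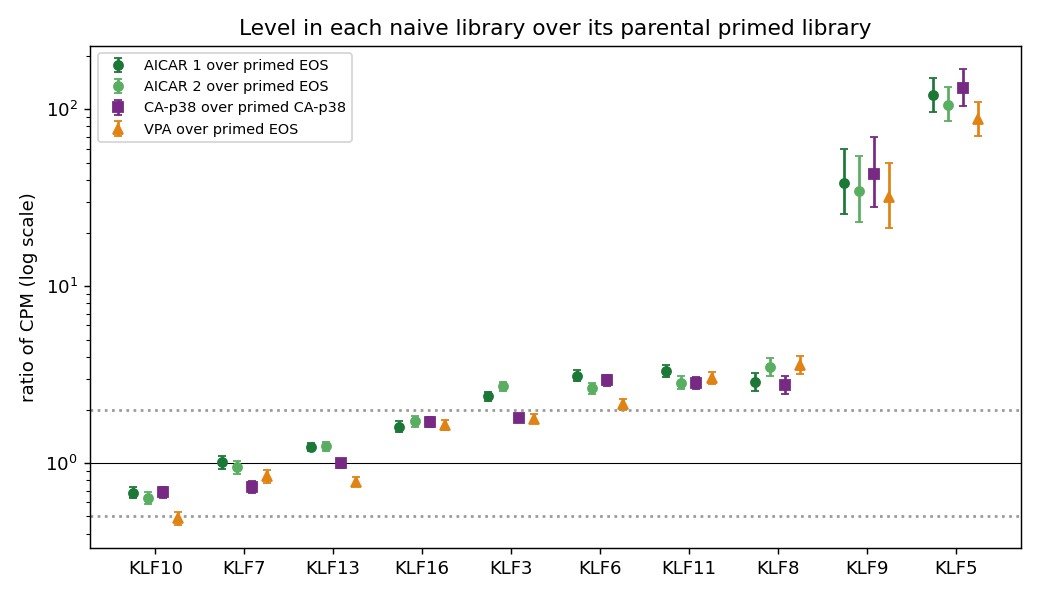
Ratio of the level in each naive library to that in its parental primed library (log axis) for the 10 KLF genes, ordered by fitted change, with 95% counting intervals as bars, a solid line at 1 and dotted lines at 2 and 0.5. The 4 naive libraries lie close together for KLF11 and KLF16, VPA lies lowest for KLF10 and KLF13, and the wide bars of KLF9 and KLF5 come from their low primed counts.

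KLF5 was 120 times its parental level in AICAR 1 (95% interval 97.0 to 151), 106 times in AICAR 2 (85.8 to 133), 132 times in CA-p38 (105 to 169) and 87.9 times in VPA (70.9 to 110). KLF9 was 38.1 times its parental level in AICAR 1 (25.5 to 59.8), 34.7 times in AICAR 2 (23.2 to 54.5), 43.0 times in CA-p38 (27.9 to 69.7) and 31.8 times in VPA (21.2 to 49.9). The width of the intervals of KLF9 comes from its 24 and 21 primed counts, and the reference shared by AICAR 1, AICAR 2 and VPA moves their ratios together. KLF3 was 2.39 times its parental level in AICAR 1 (2.26 to 2.54), 2.72 times in AICAR 2 (2.565 to 2.88), 1.80 times in CA-p38 (1.70 to 1.90) and 1.78 times in VPA (1.68 to 1.895). The AICAR intervals lay above those of CA-p38 and VPA beyond counting error, although primed CA-p38 itself had 1.23 times the KLF3 level of primed EOS. KLF13 was 1.23 times in AICAR 1 (1.17 to 1.31), 1.24 times in AICAR 2 (1.18 to 1.32), 0.9999 times in CA-p38 (0.941 to 1.06) and 0.788 times in VPA (0.740 to 0.839), so that it lay on either side of its parental level depending on the library. KLF10 was 0.683 times in AICAR 1, 0.637 times in AICAR 2, 0.684 times in CA-p38 and 0.488 times in VPA (0.448 to 0.531 for VPA), below its parental level in all of them. KLF6 ran from 2.15 times in VPA (1.99 to 2.31) to 3.12 times in AICAR 1, KLF8 from 2.76 times in CA-p38 to 3.58 times in VPA, KLF11 from 2.845 to 3.31 times and KLF16 from 1.61 to 1.72 times. With 1 library for VPA and 1 for CA-p38, differences between inductions were not tested.

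Within the naive group, the ratio of the highest to the lowest library ran from 1.11 for KLF16 to 1.58 for KLF13. The coefficient of variation ran from 4.39% for KLF16 to 20.9% for KLF13 with a median of 11.9% over the 10 genes, beside 10.4% over the 12100 genes averaging 5 CPM or more in naive libraries. VPA was the lowest naive library for 7 of the 10 genes (KLF3, KLF5, KLF6, KLF7, KLF9, KLF10 and KLF13). AICAR 1 was the highest for 5 (KLF5, KLF6, KLF7, KLF9 and KLF11). The share of all genes with these extremes was not counted, so whether they are particular to the KLF genes was not tested. Dixon's ratio for an outlying library was at most 0.627 (AICAR 1 for KLF11). It stayed below its critical value for each of the 10 genes, so no naive library stood out by this rule. The naive group joins libraries of different inductions, so its spread holds any difference between inductions together with differences between single libraries. Between the primed lines, primed CA-p38 over primed EOS gave 1.28 for KLF7 and 1.23 for KLF3, and 0.856 for KLF5 and 0.886 for KLF9.

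The genes whose pattern over the 6 libraries was most like that of KLF5, by Euclidean distance between centred log2(CPM + 0.5) among 12593 genes averaging 5 CPM or more, were the zinc finger genes ZNF841 (distance 0.267), ZNF486 (0.430) and ZNF257 (0.434). ZNF841 was at 44.2 to 56.6 CPM in naive and 0.123 to 0.141 CPM in primed libraries. These primed levels lie below the 0.5 CPM added, so the likeness of ZNF841 to KLF5 depends in part on that addition. For KLF10 the nearest were POGK (distance 0.131), RNGTT (0.145) and STIM1 (0.153). POGK was at 33.7 to 47.9 CPM in naive and 72.25 to 76.5 CPM in primed libraries, with VPA the lowest, as for KLF10.

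Other genes of the pathway were described from lists, to be read beside the 26% of all genes that were higher and 27% lower. Of 8 other KLF genes, 7 were tested, of which KLF2, KLF4, KLF17 and KLF18 were higher in naive libraries, KLF12 was lower and KLF1 and KLF15 did not pass. KLF12, the CtBP-binding relative of KLF3 and KLF8, was at 0.535 to 1.71 CPM in naive and 22.3 to 22.5 CPM in primed libraries, with a log2 fold change of -4.45 ± 0.322 (SE, edgeR adjusted p = 1.25e-07). The CtBP-binding class thus did not move as 1 group, and with KLF12 added its sum per length was 12.9 ± 1.88 CPM per kb (SD, n = 4) in naive and 7.87 ± 0.791 CPM per kb (SD, n = 2) in primed libraries. Of 9 SP genes, the relatives that bind the same GC boxes, 7 were tested. SP1 (log2 fold change 0.30), SP6 (2.33) and SP8 (2.998) were higher, and SP3 (-1.14), SP4 (-1.35) and SP5 (-2.53) were lower.

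Of 12 cofactors of KLF proteins, 2 were higher and 6 were lower, where 26% and 27% of all genes tested were so. The lower ones were the corepressors CTBP1 (log2 fold change -0.42) and CTBP2 (-0.69), SIN3A (-0.39) and SIN3B (-0.54), the acetyltransferase CREBBP (-1.05) and the host cell factor HCFC1 (-0.71). The higher ones were KAT2A (0.80), an acetyltransferase, and WDR5 (1.03), a subunit of histone methyltransferase complexes, while EP300, KAT2B and the ubiquitin ligase genes WWP1 and FBXW7, whose products act on KLF5, did not pass. The median of this list was -0.362. RNA of both CtBP genes was thus lower, while of their partners KLF3 and KLF8 were higher and KLF12 was lower. RNA of both SIN3 genes was lower, while KLF9, KLF11 and KLF16 were higher, KLF10 was lower and KLF13 did not pass.

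KLF6 and KLF10 are also early response genes, and only the naive cells had been sorted, so immediate-early and stress genes are given beside them. Of 14 such genes, 7 were higher in naive libraries, among them FOS (log2 fold change 2.40), JUNB (1.89), ATF3 (1.59) and SOCS3 (1.32), a target of STAT3 signalling. Another 3 were lower, EGR1 (-3.09), EGR2 (-3.93) and IER3 (-4.11), and 4 did not pass. Over all genes tested, 26% were higher and 27% were lower. KLF6 was higher and KLF10 lower. Of 7 genes responding to TGF-beta family signals, LEFTY2 (3.36), PMEPA1 (0.58) and ID1 (0.74) were higher, SKIL (-0.71), TGIF1 (-0.39) and LEFTY1 (-1.71) were lower, and SMAD7 did not pass. This list held as many genes that were higher as lower. The part of sorting, dissociation or these signals in the KLF values was not tested.

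**Figure D5:**
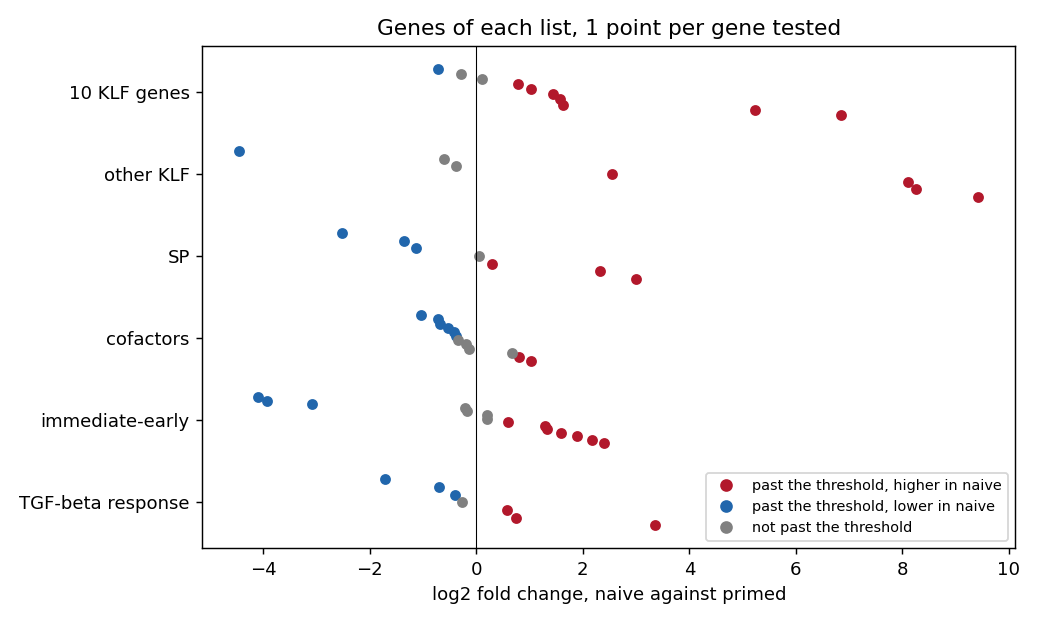
Fitted log2 fold change of naive against primed libraries (horizontal axis) for each gene tested in 6 lists, 1 point per gene, coloured by whether it passed the test and in which direction. The 10 KLF genes lie mostly to the right with KLF10 alone past the threshold on the left, the cofactors lie mostly to the left, and the SP, immediate-early and TGF-beta lists hold genes on both sides.

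The members lie on separate chromosomes except KLF7 and KLF11, which are both on chromosome 2 (GENCODE release 44, GRCh38). KLF5 spans chr13:73054976-73077541 on the plus strand in 4 exons of its principal transcript, KLF9 spans chr9:70384604-70414657 on the minus strand in 2 exons, and KLF10 spans chr8:102648784-102655725 on the minus strand in 4 exons. KLF11 spans chr2:10042849-10054836 on the plus strand. Exons of KLF3 overlap those of the antisense gene KLF3-AS1 by 265 bases, those of KLF16 overlap ENSG00000267125 by 483 bases, those of KLF11 overlap ENSG00000271787 by 416 bases and those of KLF7 overlap MYOSLID by 67 bases and ENSG00000224342 by 13 bases, each on the opposite strand. Whether the counting used strand is not stated, so reads from these stretches cannot be told apart. KLF3-AS1 held 136 to 303 counts beside 1600 to 4362 for KLF3, and its log2 fold change of 0.44 (adjusted p = 0.269 by edgeR) did not pass. ENSG00000267125 held 133 to 321 counts beside 1243 to 2451 for KLF16, and the overlapping gene of KLF11 held 4 to 56 counts beside 816 to 2962. The intronic transcript KLF7-IT1 was higher in naive libraries (log2 fold change 2.13, adjusted p = 0.0237 by edgeR) at levels of 0.0818 to 1.03 CPM, whereas KLF7 itself did not pass. The pseudogenes KLF3P2, KLF7P1 and KLF8P1 had too few counts to be tested, and KLF3P1, at 0 to 24 counts, did not pass.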

How the data were processed

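Bulk RNA-seq of 4 naive and 2 primed libraries was analysed. The libraries were prepared from poly(A)-selected RNA with a SMART-Seq Stranded kit. Per the study's methods, the authors trimmed adapters with cutadapt 1.15 in Trim Galore 0.4.4, aligned reads by Bowtie2 to Ensembl GRCh38 transcripts (cDNA and ncRNA, release 100) and required a mapping quality of 1 or more. What was deposited is 1 raw count for each Ensembl identifier and library. Because reads were placed on transcripts at this low mapping quality, reads shared with pseudogenes or alternative sequences may be split or assigned to either. The table holds 61222 identifiers. Its 26 spike-in rows (at most 1 count) were left out, as were 23 columns of other studies. Identifiers sharing a name were summed to 48183 names, which also joins distinct genes under 1 clone name. Of the 10 KLF genes, 9 had 1 identifier.

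The fit of naive against primed libraries used edgeR 4.0.16 under R 4.3.3 (quasi-likelihood test by glmQLFit and glmQLFTest, TMM factors of 0.936 to 1.06, filterByExpr by state, no covariates, common dispersion 0.0563), with Benjamini-Hochberg adjustment over 26497 genes and a threshold of 0.05. The test and its alternatives, DESeq2 1.42.0 and limma-voom 3.58.1, were checked on simulated data of the same depth. P-values measure the spread between these libraries, which includes any differences between inductions and may in part be technical. The study lists its AICAR samples at successive passages and does not state whether they came from separate conversions. The SE of a log2 fold change was derived from the test, as its absolute value divided by the square root of the F statistic. Under limma-voom the SE was larger for KLF5 (0.355) and KLF9 (0.438), and it changed less for the other members. The approximate 95% intervals of log2 fold changes assume a normal spread, so they are narrower than the quasi-likelihood test implies. A two-sided exact permutation test of 4 against 2 libraries cannot go below 0.0667. Ratios to the parental library used CPM with 95% Clopper-Pearson intervals, which cover counting error only, and the 2-fold rule added a pseudocount of 0.5 CPM to both levels. Lengths were merged exons of GENCODE release 44. Upstream sequences came from RefSeq (GRCh38.p14). Figures and the remaining steps used matplotlib 3.10.9, pandas 2.3.3, numpy 2.4.6 and scipy 1.17.1 under Python 3.11.15.

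The genes named were the 10 KLF genes, the genes of the lists, transcripts named after a member, and the 3 genes nearest in pattern to the members with the highest and the lowest fitted change. From the lists, 1 gene was left out of the counts and is not reported here. Members and lists were chosen with earlier results of these data known. Alternatives covered scaling, test, filter, identifiers kept apart, the parental line as a block, both AICAR libraries merged, and leaving out 1 library at a time. For ratios and levels they covered the pseudocount, the scaling, the reference and the transcript length.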

Additional observations from a re-analysis of the deposited data

How the results depend on the processing

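Each of the 10 KLF genes was refitted under 15 alternatives. In all of them 7 genes were higher in naive libraries and 1 was lower, and each gene kept the direction and the side of the threshold it had. Among the genes past it, KLF10 had the highest adjusted p, from 6.44e-05 to 0.0329, the latter without primed CA-p38. Among the others, KLF7 ranged from 0.0539, without primed EOS, to 0.750 and KLF13 from 0.233 to 0.965. The log2 fold change of KLF5 ranged from 6.745 to 6.95, of KLF9 from 5.16 to 5.33, of KLF3 from 0.88 to 1.19 and of KLF16 from 0.71 to 0.87. Median-ratio scaling put the median change over all genes at 0.057 (log2) and library totals put it at 0.205, against 0.107. The parental line as a block changed no call among the 10 genes. In the lists, over the same alternatives, other KLF and SP genes ran from 5 to 7 higher and 3 to 5 lower, cofactors from 6 to 7 lower, immediate-early genes from 2 to 3 lower and TGF-beta genes from 2 to 3 lower, and their other counts did not move. Adding a pseudocount in CPM lowered the ratios to the parental libraries where primed levels were low. With 0.5 CPM added to both levels, which is above the primed level of KLF9 itself, KLF9 ratios were 16.2 to 20.4 and KLF5 ratios 68.1 to 98.6, and with 2 CPM added they were 7.01 to 8.41 and 40.9 to 56.2. The plain ratios, chosen after seeing the data, are those given for each induction. With 2 primed libraries, a modest change such as that of KLF7 or KLF13 is limited by the spread between them and between the inductions, and a fit without 1 of them takes the lone primed library to vary as the naive ones do. With 1 library for VPA and 1 for CA-p38 an effect of induction has no replicate.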
